A study of Apostichopus japonicus with 3 samples.

Results

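Many assembled transcripts of the sea cucumber intestine had no match in a protein database, and some of them were among the most abundant in the tissue. The transcripts described here are the 150 isotigs, that is assembled transcript sequences, with the highest mean RPKM (reads per kilobase of isotig, scaled to the sequencing depth) over 3 libraries among those whose protein match field is empty. They were 150 of 10538 isotigs without a match and of 20712 isotigs in all. Mean RPKM was the measure that chose them, so their abundance is a description and was not tested. Among the 150, isotig22175, isotig24195 and isotig10678 stood far above the rest and are described apart.

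The libraries came from intestines of Apostichopus japonicus, an echinoderm that becomes dormant in the warm season. There was 1 library each from animals outside aestivation (non-aestivation), from animals in deep aestivation and from animals aroused from it, with at least 15 individuals per stage. The sources used here do not give whether individuals were pooled, nor the animals' age, strain and rearing. All libraries were made from DNase-treated total RNA by enrichment of mRNA with oligo(dT) beads, fragmentation and random priming. The tables of the 2 outer stages carry crossed codes: the one of the sample labelled non-aestivation is coded as arousal, and the reverse. Every direction between these 2 libraries, and which of them stands against deep aestivation in a comparison, therefore rests on the labels. A statement that sets deep aestivation apart from both others holds either way.

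Aestivation is a summer dormancy in which this animal stops feeding and its gut shrinks. An assembled transcript can lack a protein match for several textbook reasons. It can be a non-coding RNA, a piece of untranslated region cut off from its coding part, an RNA for a short or fast-changing protein, or an RNA of a gene particular to the lineage. No function is known here for any of the 150, and none carried a gene ontology term. The same held for all 10538 isotigs without a match, whereas 5043 of the 10174 with a match carried a term.

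Reads with a unique alignment numbered 1.02 M, 0.893 M and 0.945 M in non-aestivation, deep aestivation and arousal, on 18327, 18385 and 17651 isotigs. As a check of the tissue, 30 isotigs matching intestinal proteins held 1.83%, 0.893% and 5.75% of the reads in these libraries. One of them, isotig19264, matching intestinal fatty acid binding protein 2, held 1.62%, 0.319% and 5.44%, and the other 29 held 0.212%, 0.574% and 0.313%, in another order. Isotigs matching muscle proteins (33) held 0.112% to 0.174%, those matching neuronal proteins (25) held 0.0514% to 0.0995%, and no isotig matched the gonad markers vasa, nanos or piwi. The part of other tissues or of gut regions in the results was not tested. With bulk tissue, fewer cells of a type and less RNA per cell cannot be told apart. Stages were not replicated, so no spread between animals or libraries is known, no test between stages was made, and each interval covers counting error alone. Reads copied by PCR and not tagged by molecule are not independent, so read counts overstate the number of molecules behind each interval.

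The 150 isotigs held a large part of each library. They took 26.7% of the reads in non-aestivation, 22.9% during deep aestivation and 19.7% during arousal, with exact 95% binomial intervals of 26.6% to 26.8%, 22.8% to 23.0% and 19.6% to 19.8%. The share was highest in non-aestivation and lowest in arousal. All isotigs without a match, a total that contains the 150, moved in the same order, with 48.4%, 43.4% and 36.2% of the reads. Those outside the 150 held 21.7%, 20.5% and 16.5%. Within all isotigs without a match the 150 kept a like portion, 55.2%, 52.8% and 54.4% of the reads. The isotigs with a match took the remainder, 51.6%, 56.6% and 63.8%.

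A library is a fixed sum, so a share also moves when other transcripts take more reads. The 2 most abundant isotigs with a match were isotig19264, whose match is a carrier of fatty acids in gut cells, and isotig13120, matching major yolk protein 1, an iron-binding protein of echinoderms. Together they took 4.07% of the reads in non-aestivation, 10.5% during deep aestivation and 16.1% during arousal. Counted over the reads left without these 2, the 150 isotigs held 27.8%, 25.6% and 23.5%. The order of the libraries was the same and the distance between them smaller.

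**Figure D1:**
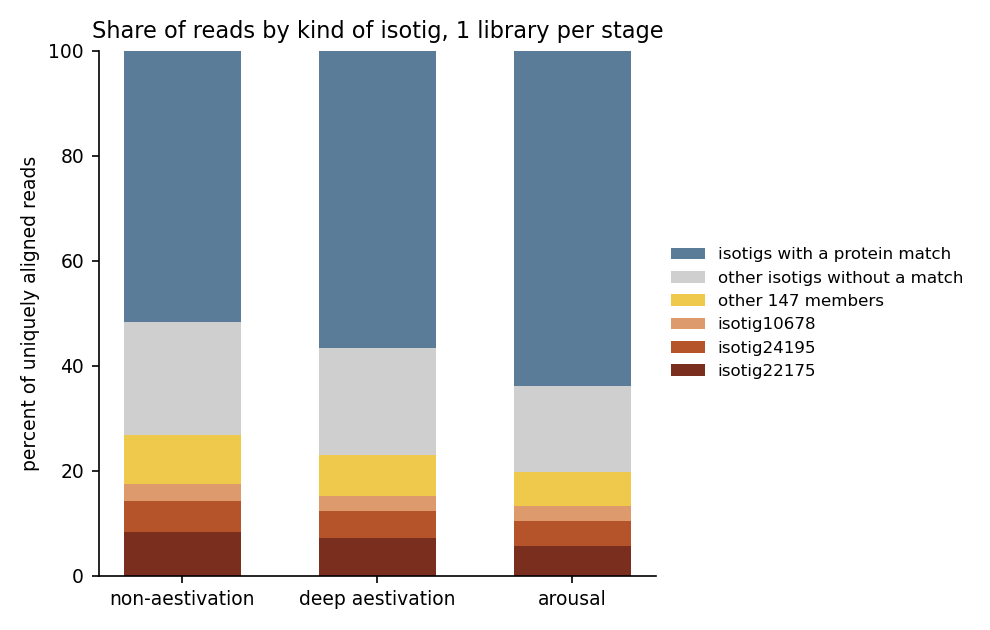
Stacked bars give the percent of uniquely aligned reads (vertical axis) in each library, 1 per stage, divided among the 3 most abundant isotigs without a protein match, the other 147 isotigs of the set, all other isotigs without a match, and isotigs with a match. The 3 isotigs together fill 17.5%, 15.1% and 13.3% of the bars for non-aestivation, deep aestivation and arousal, and the isotigs with a match widen to 63.8% in arousal.

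The 3 leading isotigs held most of this share. They took 17.5%, 15.1% and 13.3% of all reads in non-aestivation, deep aestivation and arousal, against 9.18%, 7.84% and 6.41% for the other 147. Their mean RPKM was 109151 for isotig22175, 95928 for isotig24195 and 77656 for isotig10678. The fourth isotig of the set, isotig29200, reached 18958, and the median of the 150 was 388.9. In each library the 3 stood above every other isotig without a match. The gap to isotig29200 differed between libraries: isotig10678 had 2.92 times its RPKM in non-aestivation, 4.04 times in deep aestivation and 7.72 times in arousal.

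isotig22175 is 650 bases long and had 85569 reads in non-aestivation, 64708 during deep aestivation and 53537 during arousal. Its RPKM was 128763, 111511 and 87179 in that order, and its share of all reads was 8.37%, 7.25% and 5.67%. It was highest in non-aestivation and lowest in arousal, a range of 1.48-fold. Deep aestivation was 1.15-fold lower than non-aestivation (95% interval 1.14 to 1.17), and arousal was 1.28-fold lower than deep aestivation (1.26 to 1.29).

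isotig24195 is 546 bases long and had 60404 reads in non-aestivation, 45154 during deep aestivation and 44848 during arousal. Its RPKM was 108208, 92635 and 86941. With the library total the order was that of isotig22175 over a narrower range, 1.24-fold between the highest and the lowest library. Deep aestivation was 1.17-fold lower than non-aestivation (1.15 to 1.18), and arousal was 1.07-fold lower than deep aestivation (1.05 to 1.08).

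isotig10678 is 382 bases long and had 33279 reads in non-aestivation, 24891 during deep aestivation and 26984 during arousal. Its RPKM was 85211, 72988 and 74768. With the library total it was lowest in deep aestivation, and its range of 1.17-fold was the fifth narrowest of the 150. Deep aestivation was 1.17-fold lower than non-aestivation (1.15 to 1.19), and arousal was 1.02-fold higher than deep aestivation (1.01 to 1.04).

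Between deep aestivation and non-aestivation the 3 moved by nearly equal steps, 1.15-, 1.17- and 1.17-fold. None of the 3 came near a 2-fold difference in any comparison. Their ratios to each other do not depend on the library total. The RPKM of isotig22175 was 1.20 times that of isotig24195 in deep aestivation and 1.19 times in non-aestivation. In arousal the ratio was 1.00. The RPKM of isotig24195 over that of isotig10678 was 1.27, 1.27 and 1.16 in non-aestivation, deep aestivation and arousal. For isotig24195 and isotig10678 the order of arousal and deep aestivation depended on the scaling. Their log2 ratios of arousal over deep aestivation were -0.09 and 0.03. Other ways of scaling the libraries moved the median of this ratio over isotigs with mean RPKM of at least 1 by -0.17 to 0.16.

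Reads reached only a portion of each of these 3 isotigs. The authors' coverage value is read here as the percent of an isotig's length touched by reads. Their legend defines it as read bases over isotig bases, but no value exceeds 100, and all statements on covered bases rest on this reading. For isotig22175 it was 86.77% in non-aestivation, 72.15% during deep aestivation and 79.38% during arousal, or 564, 469 and 516 bases. For isotig24195 it lay between 88.46% and 89.01%. For isotig10678 it was 45.55% in every library, which is 174 of 382 bases, despite 24891 or more reads in each. Among the isotigs of the set with at least 90% of their length covered in every library, 92 in number, none of these 3 appears. The uncovered bases carry length into the RPKM without adding reads. A read that aligned to several isotigs is not in the unique count, per the file headers, so sequence shared between isotigs also appears as uncovered.

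**Figure D2:**
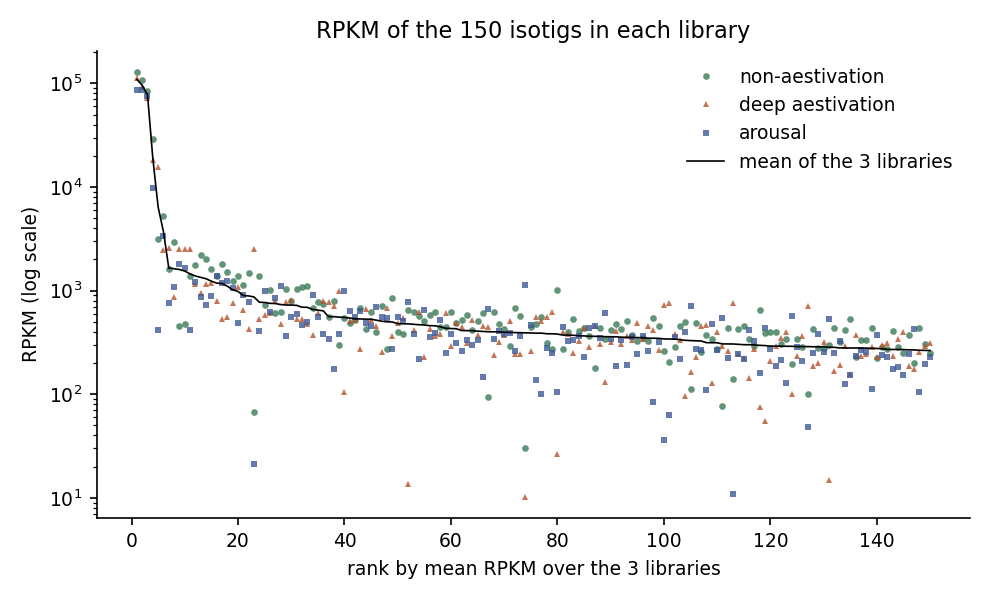
RPKM on a log scale (vertical axis) against rank by mean RPKM (horizontal axis) for the 150 isotigs, with 1 point per library and a line for the mean of the 3 libraries. The 3 leading isotigs lie at 72988 or more in every library, isotig29200 follows at 9681 to 29134, and the mean falls to 264.1 at rank 150.

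The next 12 isotigs by mean RPKM held 2.60%, 2.59% and 1.35% of the reads in non-aestivation, deep aestivation and arousal. isotig29200, 280 bases long, had 29134, 18058 and 9681 RPKM, from 8340, 4514 and 2561 reads. Its level was highest in non-aestivation and was 3.01-fold lower in arousal than in non-aestivation (2.88 to 3.15). The fifth in order, isotig26827, is 434 bases long and had 3137, 15636 and 412.2 RPKM. It held 0.679% of all reads in deep aestivation, 4.98-fold above non-aestivation (4.70 to 5.29), and was 37.9-fold lower in arousal than in deep aestivation (32.6 to 44.5).

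Among the other 10 of these 12, no common stage order appeared. isotig21480 had 457.3, 2536 and 1804 RPKM in non-aestivation, deep aestivation and arousal, and isotig28183 had 475.9, 2493 and 1656. Both were lowest in non-aestivation, with deep aestivation 5.55-fold (4.92 to 6.27) and 5.24-fold (4.46 to 6.19) above it. isotig28628 had 1393, 2538 and 420.9 RPKM and isotig16491 had 1629, 2573 and 751.9, both highest in deep aestivation and lowest in arousal. isotig28049 had 2914, 866.0 and 1092 RPKM and isotig22646 had 2211, 945.9 and 866.9, both at least 2-fold above the other libraries in non-aestivation. isotig21981 had 5272, 2452 and 3380 RPKM and was lowest in deep aestivation. isotig22879, at 2027, 1145 and 730.7 RPKM, and isotig15491, at 1629, 1177 and 892.2, were highest in non-aestivation and lowest in arousal. isotig13281, one of the longest of the set at 2415 bases, had 1776, 1169 and 1207 RPKM.

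The remaining 135 isotigs of the set held 6.58%, 5.25% and 5.06% of the reads in non-aestivation, deep aestivation and arousal. The set has no natural lower edge. The last 3 inside it were isotig08764, isotig20875 and isotig15467 with a mean RPKM of 265.6, 264.7 and 264.1. The next 3 outside it were isotig29638, isotig25882 and isotig16691 with 263.4, 262.6 and 260.4. Counted with the isotigs that have a match, the last of the set ranked 377 by mean RPKM. The set supplied 6 of the 20 and 18 of the 100 most abundant isotigs.

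Choosing by a mean lets an isotig enter through 1 library. Of the 150, 73 had an RPKM of at least 264.1, the mean of the last isotig inside, in all 3 libraries, 51 in a pair of them and 26 in 1 alone. All 150 had reads in every library, the fewest being 4 reads, and all were among the 18352 isotigs compared, those whose RPKM averaged 1 or more. The counts below read against that background and against the 150 most abundant isotigs with a protein match, chosen by the same measure. These matched isotigs were more abundant than the set, with a median mean RPKM of 1211 against 388.9. Abundant isotigs have more reads, so a 2-fold difference passes counting error in them more often than in the background. No count below is taken as a result particular to the 150, and none was tested.

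A call meant a difference of at least 2-fold in RPKM + 0.5 with a 99.9% exact conditional binomial interval that excludes equal shares of reads. For deep aestivation over non-aestivation, 14 of the 150 were called higher and 33 lower, where the background was 5.19% higher and 4.06% lower. The other 103 were called in neither direction. The median log2 ratio of RPKM + 0.5 was -0.38 over the 150, 0.16 over all isotigs compared and -0.91 over the 150 most abundant with a match. Of these matched isotigs, 17 were called higher and 58 lower. By the 2-fold criterion alone, 14 of the 150 were higher and 34 lower, against 24.5% higher and 17.7% lower over all isotigs compared. Scaling bore on the background: all isotigs compared gave 952 higher and 745 lower calls, but 721 and 954 with median-ratio size factors. If the codes and not the labels name the outer libraries, 28 of the 150 were higher and 20 lower in deep aestivation over non-aestivation, and the direction of the split turns.

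For arousal over deep aestivation, 20 of the 150 were called higher and 28 lower, where the background was 3.37% higher and 5.31% lower. The median log2 ratio was -0.04 over the 150 and -0.16 over all isotigs compared. Among the 150 most abundant with a match, 17 were called higher and 11 lower, with a median of 0.14. The sign of the set's own median depended on the scaling: with median-ratio size factors it was 0.16, and with upper-quartile factors 0.11. The median-ratio factors moved the median of all isotigs by 0.16, and 24 of the 150 were then called higher and 23 lower. Over all isotigs compared, 619 higher and 975 lower calls became 839 and 732.

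For arousal over non-aestivation, 10 of the 150 were called higher and 38 lower, where the background was 3.84% higher and 5.21% lower. The median log2 ratio was -0.49 over the 150, -0.04 over all isotigs compared and -0.72 over the 150 most abundant with a match. Of these matched isotigs 19 were called higher and 26 lower. Scaled to the reads on isotigs with a match, all isotigs compared gave 414 higher and 1587 lower calls, against 704 and 956 with the library total. Under that scaling 8 of the 150 were called higher and 57 lower. Both this comparison and that of deep aestivation use the non-aestivation library, so they are not independent of each other.

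**Figure D3:**
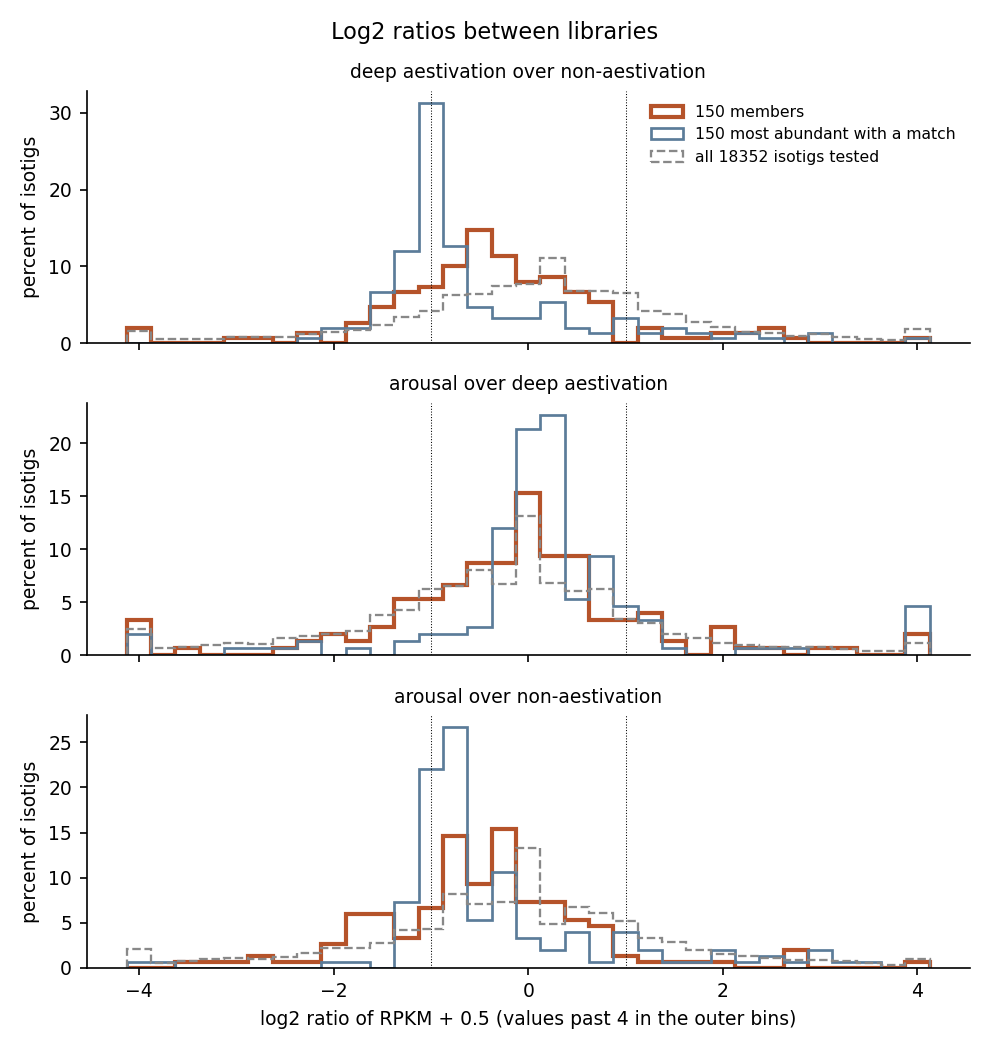
Log2 ratios of RPKM + 0.5 (horizontal axis) for each pair of libraries, as the percent of isotigs per bin (vertical axis), for the 150 isotigs of the set, the 150 most abundant isotigs with a match and all 18352 isotigs compared; dotted lines mark 2-fold. In deep aestivation over non-aestivation the set has its median at -0.38, between -0.91 for the abundant isotigs with a match and 0.16 for all isotigs.

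Over the 3 libraries, 79 of the 150 were called in at least 1 comparison, or 52.7%, where the background was 17.6%. The 150 most abundant with a match gave 91, or 60.7%. The ratio of the highest to the lowest RPKM had a median of 2.13 over the 150, with a range of 1.08 to 119, and of 2.09 over the matched 150. In 31 of the 150 it was under 1.5, against 7 of the matched 150, and in 10 of each it was 10 or more. The steadiest were isotig13692, with 347.2, 338.9 and 366.9 RPKM in non-aestivation, deep aestivation and arousal, and isotig12413, with 524.3, 515.6 and 561.5. Both were picked by this ratio after their values were seen. The highest RPKM fell in non-aestivation for 78 of the 150, in deep aestivation for 41 and in arousal for 31, or 52.0%, 27.3% and 20.7%. Over all isotigs compared it was 31.4%, 42.2% and 26.4%. In the matched 150 these counts were 100, 22 and 28.

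Deep aestivation was called higher than both other libraries in 8 of the 150, where the background was 1.95% and the matched 150 gave 9. These pattern counts depend on how the set was chosen. Among the 150 isotigs with the highest lowest RPKM over the libraries, deep aestivation was above both others in 3 and below both in 5, and arousal was above both in 1 and below both in 8. The 8 of the set held 0.254% of the reads in non-aestivation, 1.26% during deep aestivation and 0.0868% during arousal. A peak of this sum in deep aestivation follows from how the 8 were picked. Of their reads, isotig26827 gave 6058 of 11293 during deep aestivation but 169 of 820 during arousal. The largest separation was that of isotig10156, 952 bases long, which had 65 reads in non-aestivation, 2140 during deep aestivation and 19 during arousal. It was 37.7-fold higher in deep aestivation than in non-aestivation (29.5 to 49.0) and 119-fold lower in arousal than in deep aestivation (76.1 to 198). Reads covered 37.82%, 43.17% and 35.40% of it, so the 2140 reads in deep aestivation lay on only a little more of its length than the 19 in arousal.

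Other isotigs of this kind had fewer reads. isotig27226 had 43, 267 and 19 reads in non-aestivation, deep aestivation and arousal, and isotig26271 had 97, 314 and 28. isotig02251 had 55, 263 and 4 reads and was 69.6-fold lower in arousal than in deep aestivation, with a wide interval of 26.9 to 257. isotig14639, 1508 bases long, had 405, 978 and 52 reads. In each of these, arousal lay below non-aestivation as well. The remaining pair, isotig20588 with 228, 667 and 269 reads and isotig16761 with 308, 606 and 260, had like levels in the outer libraries and are named here after their values were seen. Arousal was called lower than both other libraries in 21 of the 150, where the background was 2.09% and the matched 150 gave 6. Of the 8 with deep aestivation above both others, 5 are among these 21.

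Deep aestivation was called lower than both other libraries in 14 of the 150, where the background was 1.16% and the matched 150 gave 13. The 14 of the set held 0.769% of the reads in non-aestivation, 0.195% during deep aestivation and 0.696% during arousal. A dip of this sum in deep aestivation follows from how the 14 were picked. isotig19495, 830 bases long, had 552 reads in non-aestivation, 10 during deep aestivation and 602 during arousal. It was 48.2-fold lower during deep aestivation than in non-aestivation (26.0 to 101) and 56.9-fold higher in arousal than in deep aestivation (30.7 to 119). isotig18444, 911 bases long, had 281, 12 and 460 reads, 20.4-fold lower during deep aestivation than in non-aestivation (11.5 to 40.0). Both were covered over 86.50% or more of their length outside deep aestivation.

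Other isotigs of this kind kept more reads in deep aestivation. isotig13934, 1760 bases long, had 705, 87 and 726 reads in non-aestivation, deep aestivation and arousal, and isotig12993, 509 bases long, had 285, 48 and 481. isotig23907 had 291, 49 and 212 reads. isotig14760, 1472 bases long, was the most abundant of the 14 with 2720, 700 and 1637 reads. The isotig numbered next to it, isotig14759, is 1473 bases long and had 564, 246 and 337 reads. These were the only members with consecutive numbers. Both were lowest in deep aestivation, though their numbers fall in a stretch ordered by length, so being neighbours there says nothing of shared sequence.

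**Figure D4:**
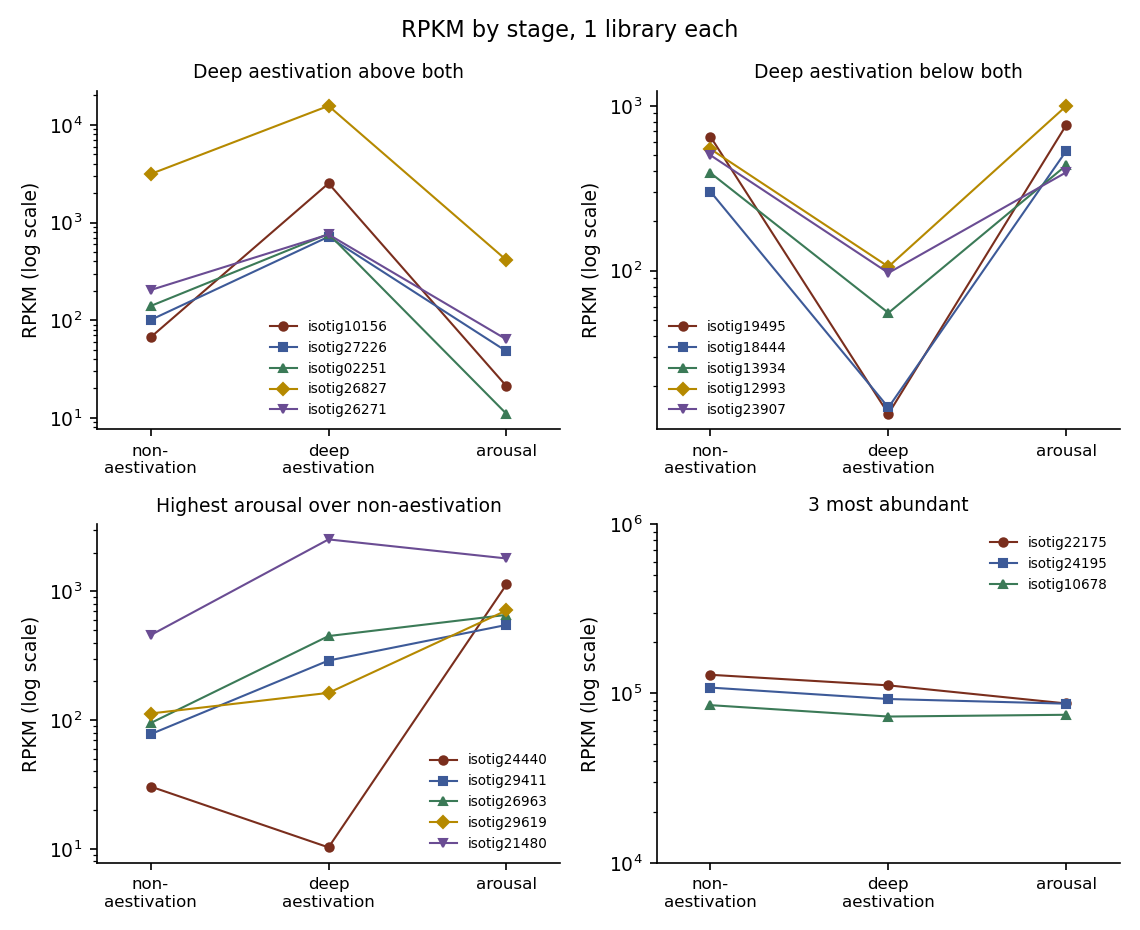
RPKM on a log scale (vertical axes) in the non-aestivation, deep aestivation and arousal libraries for the 5 isotigs with deep aestivation most above both others, the 5 with it most below both others, the 5 with the highest ratio of arousal over non-aestivation, and the 3 most abundant. isotig10156 peaks at 2518 in deep aestivation, against 66.8 in non-aestivation and 21.1 in arousal, isotig19495 dips to 13.5 there, and the lines of the 3 most abundant are nearly flat.

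Non-aestivation was called higher than both other libraries in 11 of the 150, where the background was 1.59%, and lower than both in 6, where it was 1.19%. Among the matched 150 these counts were 12 and 7. isotig23299, 598 bases long, had 618 reads in non-aestivation, 14 during deep aestivation and 59 during arousal, 38.5-fold lower during deep aestivation than in non-aestivation (22.8 to 70.9). Its coverage was 93.48%, 20.23% and 41.64% in that order. isotig29432, only 237 bases long, had 158, 16 and 36 reads. On the low side, isotig26963 had 42, 174 and 269 reads and isotig29411 had 19, 62 and 124. isotig21480 and isotig28183, described above, belong to the same 6.

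Arousal was called higher than both other libraries in 4 of the 150, where the background was 1.42% and the matched 150 gave 10. isotig24440, 545 bases long, had 17 reads in non-aestivation, 5 during deep aestivation and 583 during arousal. It was 110-fold higher in arousal than in deep aestivation (46.9 to 341) and 37.1-fold higher than in non-aestivation (23.0 to 64.1). Its coverage was 58.72%, 27.52% and 98.35%. isotig29619, the shortest of the set at 165 bases, had 19, 24 and 111 reads. The other two, isotig09363 with 343, 153 and 915 reads and isotig14725 with 305, 230 and 596, are named after their values were seen. Of the 21 with arousal lower than both, isotig13540, 2016 bases long, had 1122, 744 and 159 reads.

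The isotigs of the set had lengths near those of the matched 150. Their lengths had a median of 772.5 bases and ran between 165 and 2914, against a median of 754 for the matched 150 and of 648.5 for all isotigs without a match. All isotigs with a match were longer, with a median of 1017 bases. The longest was isotig08867 with 2914 bases and 1123, 1429 and 1402 reads in non-aestivation, deep aestivation and arousal, covered over 96.47% or more in each. isotig13349, with 2267 bases, had 1362, 631 and 714 reads. At the short end, isotig29584 and isotig29560 are 185 bases long and had 54 to 110 reads per library. RPKM divides by length, which lets short isotigs into the set with few reads.

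Length also bore on how many abundant isotigs lacked a match. Of the 377 isotigs as abundant as the last of the set, 39.8% had no match, against 50.9% of all isotigs. Below 500 bases the share was 51.9% of the abundant ones (41 of 79) against 73.2% of all isotigs of that length. At 2000 bases and above it was 23.1% (9 of 39) against 148 of 1233. From 1000 to under 2000 bases it was 44.9% against 34.0%, and from 500 to under 1000 it was 34.8% against 57.3%. Being abundant thus went with fewer unmatched isotigs below 1000 bases and with more of them above, as counts without a test.

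Calls were also counted by length. The 41 isotigs of the set under 500 bases had a median ratio of highest to lowest RPKM of 2.48, and 24 of them were called in at least 1 comparison. Of the 9 with 2000 bases or more, 1 was called, and their median ratio was 1.52. The classes between gave 31 of 56 and 23 of 44. Over all isotigs compared, the share called in at least 1 comparison was 10.4%, 15.3%, 23.7% and 31.6% from the shortest class to the longest. Among the matched 150 it was 65.2%, 57.3%, 68.6% and 52.9%. The longest class of the set has few isotigs, and its difference from the rest was not tested.

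Coverage was high in most of the set. Its median was 96.4%, 95.4% and 95.2% in non-aestivation, deep aestivation and arousal, against 96.9%, 96.4% and 96.6% in the matched 150. Over all isotigs without a match, most with few reads, the medians were 29.97%, 29.0% and 24.6%. Coverage grows with reads and the set was chosen by RPKM, so the distance from these medians follows in part from the choice. Coverage changed by a median of 3.21 percentage points between the libraries of an isotig, and by up to 73.3 points in isotig23299. In 4 isotigs it did not change at all: isotig10678, isotig28049, isotig13281 and isotig22646. The last 3 of these were covered over 98.25% or more, so isotig10678 alone held the same value at partial coverage.

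A minority had low mean coverage. The mean over the libraries was under 80% in 22 of the 150 and under 50% in 9, against 12 and 5 of the matched 150. Some of the 22 had a low mean through libraries with few reads. isotig24440 was covered over 98.35% with 583 reads in arousal but over 27.52% with 5 in deep aestivation. isotig23299 was covered over 93.48% with 618 reads in non-aestivation but over 20.23% with 14 in deep aestivation. The 3 least covered isotigs had many reads on a small part of their length. isotig07342, 1868 bases long, had 1177, 697 and 678 reads in non-aestivation, deep aestivation and arousal on 16.81%, 16.49% and 16.43% of its length. isotig03216, 1651 bases long, had 469, 297 and 592 reads on 27.44% to 28.04%, and isotig04640, 2088 bases long, had 2635, 1413 and 2097 reads on 31.75% to 31.94%. In all 3 the covered portion was almost the same in every library. Their RPKM divides these reads by the whole length and is lower than it would be over the covered bases.

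**Figure D5:**
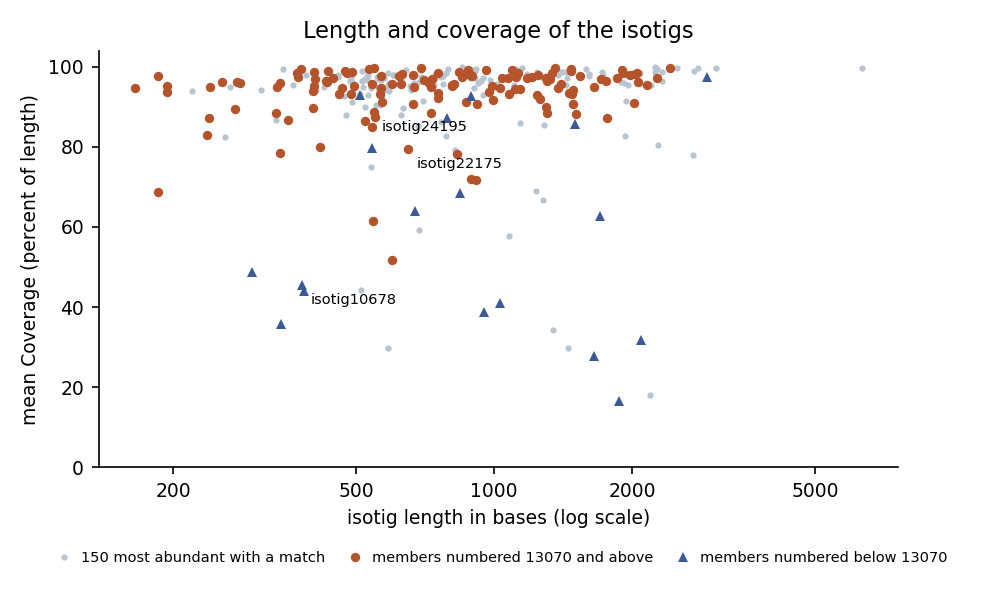
Mean coverage over the 3 libraries in percent of length (vertical axis) against isotig length in bases on a log scale (horizontal axis), for isotigs of the set numbered below 13070 and from 13070 up, and for the 150 most abundant isotigs with a match. All 9 isotigs of the set under 50% have numbers below 13070, isotig10678 among them.

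Low coverage went with the number in an isotig's name, a relation noticed in the data. From isotig13070 up, length falls steadily with the number (Spearman's rho -1.0 over 14338 isotigs, as a description), while below it the relation is loose (rho -0.46 over 6374). The sources used here do not say what the numbering stands for. Of the 150, 18 have numbers below 13070, and their coverage had a median of 55.6%, with 9 under 50%. The other 132 had a median of 95.6%, and 0 of them were under 50%. Over all isotigs with at least 100 reads the medians were 45.4% for the 678 below 13070 and 80.8% for the 2979 from there up, so the relation is not limited to the set. isotig10678, isotig10156 and isotig02251 belong to the lower block, and isotig22175 and isotig24195 to the upper one.

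The isotigs numbered directly beside isotig10678 carried few reads. isotig10677 had 13, 10 and 4 reads in non-aestivation, deep aestivation and arousal, and isotig10679 had 32, 15 and 18. Whether isotigs of the lower block share sequence, and so lose reads from the unique counts, was not tested, because the isotig sequences are not analysed here. For the same reason no sequence is printed and open reading frames, polyA tails and overlaps between the 150 were not examined.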

How the data were processed

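Per the file headers, each deposited table gives per isotig the authors' count of reads that aligned uniquely, as whole numbers, the length in bases, the RPKM scaled by length and by the total of aligned reads, and a coverage value. The authors' legend defines coverage as read bases over isotig bases, but no deposited value exceeds 100, so it was read as percent of length. RPKM recomputed from the deposited counts differed from the deposited RPKM by relative errors below 5e-15. CASAVA 1.5 is named in the submitters' processing notes. Aligner and assembler are not given in the sources used. Columns of per-sample values left unused numbered 0.

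Tables were joined by isotig name with absent isotigs as 0 reads. The 150 isotigs without a protein match of highest mean RPKM were taken. These members, the lists and the criteria were chosen with earlier results of these data known. Log2 ratios used RPKM + 0.5 over isotigs with mean RPKM of at least 1. Folds are ratios of read shares with exact 95% conditional binomial (Clopper-Pearson) intervals. With 1 library per stage no p-value is given. Marker lists were matched on the text of protein matches. The reference gene table shared 0 identifiers with the isotigs, so it was not used.

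Named isotigs were the 15 most abundant of the set; per comparison the 5 highest and 5 lowest ratios among those with at least 50 reads; the 5 most separated in deep aestivation in each direction; the 3 longest, 3 shortest and 3 least covered; the 3 on each side of the limit; and those with consecutive numbers. Alternatives covered scaling, pseudocount, fold, filter, set size and ranking. The calling criterion was checked on simulated counts with counting error alone and changes of 4-fold. That check does not cover spread between libraries or changes near 2-fold. Python 3.11.15, numpy 2.4.6, pandas 2.3.3, scipy 1.17.1 and matplotlib 3.10.9 were used.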

Additional observations from a re-analysis of the deposited data

How the results depend on the processing

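No paired analysis was possible because each stage has 1 library and the labels give no replicate numbers that pair them, and for the same reason no library could be left out. The share of reads of the set moved with its size and ranking but was highest in non-aestivation and lowest in arousal under every alternative run. In the order non-aestivation, deep aestivation and arousal it was 25.3%, 21.8% and 18.5% with 100 isotigs and 27.8%, 23.9% and 20.4% with 200. Ranked by mean share of reads it was 27.6%, 23.9% and 20.2%, and ranked by the lowest RPKM 26.4%, 22.5% and 19.4%. The 92 isotigs covered over at least 90% in every library, which leave out the 3 leading isotigs, held 6.94%, 6.004% and 4.61%. After seeing the data, 2 more alternatives were added: ranked by reads per covered kilobase the shares were 26.1%, 22.7% and 19.3%, and the 132 isotigs numbered from 13070 up held 22.4%, 19.1% and 15.9%.

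Counts of calls followed the fold required. At 1.5-fold, 22 were higher and 54 lower in deep aestivation over non-aestivation (over all isotigs compared 6.06% and 5.18%), 30 higher and 45 lower in arousal over deep aestivation (4.32% and 6.16%), and 17 higher and 67 lower in arousal over non-aestivation (4.64% and 6.72%). Non-aestivation was then above both others in 32 (2.64%), deep aestivation in 15 (2.57%) and arousal in 10 (1.98%), and arousal was below both in 33 (2.52%). At 4-fold, 7 were higher and 7 lower in deep aestivation over non-aestivation (2.13% and 1.47%), 9 and 12 in arousal over deep aestivation (1.48% and 2.82%), and 4 and 10 in arousal over non-aestivation (1.54% and 2.34%). Non-aestivation was then above both others in 2 (0.48%) and below both in 1 (0.327%), deep aestivation above in 4 (0.725%) and below in 5 (0.398%), and arousal above in 2 (0.43%) and below in 6 (0.915%).

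The choice of isotigs also changed the counts, though sets of 100 or 200 differ from the 150 in size. Of 100, 12 were higher in arousal over deep aestivation (13.3% of the 150). In arousal over non-aestivation 6 were higher and 25 lower (6.67% and 25.3% of the 150). Deep aestivation was above both others in 5 and below in 9 (5.33% and 9.33% of the 150). As shares these stayed close to those of the 150. Arousal was above both in 1 of the 100 and in 7 of 200, against 2.67% of the 150. Ranked by the lowest RPKM, which favours isotigs abundant in every library, 7 were higher in deep aestivation over non-aestivation, 8 higher and 13 lower in arousal over deep aestivation, and 5 higher and 23 lower in arousal over non-aestivation. Deep aestivation was then above both in 3 and below in 5, and arousal above in 1 and below in 8. Ranked per covered kilobase, non-aestivation was below both in 11. Fold and scaling were unchanged for these sets, so the background shares given above apply to them. Scaled to the reads on isotigs with a match, non-aestivation was above both in 18 of the 150. All isotigs compared then gave 414 higher and 1587 lower in arousal over non-aestivation, against 704 and 956 with the library total. The background of the pattern was not counted under that scaling, so the 18 is not read as a result about the set.

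Median length was 1314 bases when ranked by share of reads. Median coverage was 94.9%, 92.8% and 93.8% when ranked per covered kilobase, and 96.3% in arousal with 100 isotigs. For the 44 named isotigs and their 132 ratios, 776 of 792 values kept their side of the criterion, 1 lost its call and 15 gained one. Of the ratios that were called, 0 changed direction. For ratios without a call the direction was not compared. Few reads limit the isotigs with the largest folds, such as isotig02251 with 4 reads in arousal.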
